A study of Mus musculus with 22 samples.

Results

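The gene symbols Ccn1, Ccn2, Thbs1, Amotl2, Ankrd1, Sparc, Adamts1, Igfbp7 and Igfbp3 were followed in single cells of mouse esophageal epithelium. They were chosen by their measured levels per mouse in the 3 conditions and in Krt5-rich cells, so their differences between conditions, ages and cell layers are given below with their error as description and with no test. Of the 9 genes, 8 are among the 17541 genes with counts, and Ankrd1, a muscle and stress response gene often read as a YAP target, was not analysed here. Epithelium was peeled from the esophagi of 13 C57BL6 mice and profiled with inDrop, a droplet method in which each captured transcript carries a unique molecular identifier (UMI). The 6 control mice were untreated (mice 1, 2 and 6 aged 3 to 4 months, mice 3, 4 and 5 aged 18 to 20 months). The 4 mice with eosinophilic esophagitis (EoE) received MC903, a vitamin D analog, with ovalbumin (OVA) on the ears for 12 days of a 32 day protocol that ended with OVA by gavage and in drinking water (mice 9 and 10 aged 6 to 8 weeks, mice 11 and 12 aged 19 to 20 months). The 3 mice with esophageal squamous cell carcinoma (ESCC), 8M, 17F and 17M, aged 8 to 10 months, drank the carcinogen 4NQO for 16 weeks, followed by 8 weeks of withdrawal. No group without OVA but with MC903, and no vehicle group for 4NQO, is part of the comparison, and age differed between the conditions.

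YAP and TAZ (encoded by Yap1 and Wwtr1) are transcriptional coactivators that enter the nucleus when the Hippo kinases LATS and MST are inactive, for example in cells that are spread or stretched, and act there through the TEAD factors. Ccn1, Ccn2, Amotl2 and Ankrd1 are among the genes most often read as their output. Matricellular proteins are secreted into the extracellular matrix and signal to cells through integrins and other receptors rather than building the matrix, and in stratified epithelium the basal cells are the ones that sit on it. Ccn1 and Ccn2 are immediate early as well as YAP responsive genes. Thbs1 encodes thrombospondin 1, Sparc a collagen binding glycoprotein, Adamts1 a secreted metalloprotease, and Igfbp7 and Igfbp3 proteins that bind insulin-like growth factors or related ligands. Amotl2 encodes an angiomotin, which binds YAP at cell junctions and restrains it.

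The sequences before the starts of 3 of these genes are shown, chosen with the cell distributions described below known. Ccn1 and Amotl2 hold the element that TEAD factors are known to bind, and Igfbp7 does not in the window shown. Whether the element bears on the cell distribution of any gene was not tested. Each sequence is the 250 bases before the RefSeq gene start (GRCm38.p6), on the strand of the gene, 5′ to 3′, and capitals mark the letters GGAATG on either strand (read as CATTCC on the opposite strand). They lie at chr3:145649986-145650235 (minus strand) for Ccn1, chr9:102717554-102717803 (plus strand) for Amotl2 and chr5:77408046-77408295 (minus strand) for Igfbp7.
Ccn1: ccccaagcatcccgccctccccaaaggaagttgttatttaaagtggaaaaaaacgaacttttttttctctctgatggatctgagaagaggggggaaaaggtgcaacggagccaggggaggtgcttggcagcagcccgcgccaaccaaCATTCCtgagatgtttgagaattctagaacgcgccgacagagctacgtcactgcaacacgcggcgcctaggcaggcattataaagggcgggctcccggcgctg
Amotl2: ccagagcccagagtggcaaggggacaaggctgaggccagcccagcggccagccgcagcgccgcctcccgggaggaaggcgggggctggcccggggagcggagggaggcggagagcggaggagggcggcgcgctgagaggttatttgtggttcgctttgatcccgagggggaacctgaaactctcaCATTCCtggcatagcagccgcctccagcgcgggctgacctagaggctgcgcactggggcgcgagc
Igfbp7: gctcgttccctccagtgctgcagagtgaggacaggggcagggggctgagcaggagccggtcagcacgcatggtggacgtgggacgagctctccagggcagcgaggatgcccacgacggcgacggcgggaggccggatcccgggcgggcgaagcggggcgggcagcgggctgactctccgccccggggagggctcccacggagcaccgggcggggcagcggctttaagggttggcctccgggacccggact
The match lies 103 to 98 bases before the RefSeq start of Ccn1 and 65 to 60 bases before that of Amotl2. RefSeq starts differ from the gene ends of the annotation given below, and the windows of Amotl2, Sparc and Ankrd1 lie inside the annotated genes. Sequences were at hand for 7 of the 9 genes, Ccn2 and Thbs1 being the others. Ankrd1 held 2 matches, and Sparc, Adamts1, Igfbp7 and Igfbp3 held none in this window. Of 32851 promoters of the same length, 12.6% held the letters. The AP-1 element TGANTCA (6.75% of promoters) and the CArG box of serum response factor (1.47%) were in none of the 7 windows. A match is a description of the letters and not evidence of binding.

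Cells were compared as sums per mouse, because the 2 libraries of each control and ESCC mouse share a source. The libraries of 1 mouse shared 4 to 52 cell barcodes in each of 9 pairs (median 27), against 0 to 4 in 222 pairs of libraries from different mice. Whether shared barcodes are the same cells, counted in both libraries, was not tested. Sums, cell counts, shares of cells and counting intervals below treat them as separate cells. Of 1500 cells per condition, 1493 control, 143 EoE and 1472 ESCC cells passed the limits of 250 to 3500 genes and 100 to 9500 UMIs and were not called non-epithelial by marker genes. They held 1744511, 97975 and 5080711 UMIs, so that 3 UMIs over a whole group correspond to 1.78, 28.2 and 0.693 CPM (UMIs of a mouse scaled to a common total, with TMM composition factors). EoE libraries stood apart in depth, with a median of 138 UMIs per deposited cell against 990 in controls and 3099.5 in ESCC. They also differed in which genes were listed. Of 1895 genes at 100 CPM or more in controls, 22 (Igfbp7 among them) had no UMI in any deposited EoE cell and 0 were without a UMI in ESCC. Those 22 included Cox5a (916 UMIs in controls), Cdk4 (296 UMIs) and Psmb7 (277 UMIs), which nearly every cell uses, so a gene without UMIs in EoE is described here only as listed at 0. Keratin 5 (Krt5), the marker of basal keratinocytes, was present in all 3 groups, at 4283 to 7039 CPM in control, 191 to 700 CPM in EoE and 9529 to 12801 CPM in ESCC mice. In the cells used, immune markers summed to 0 to 29.3 CPM in control, 0 CPM in EoE and 85.5 to 111 CPM in ESCC mice.

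Positions of genes below are those of the annotation of GRCm38. The 2 CCN genes had their highest levels in old control mice and overlapped between ESCC and control. Ccn1 (chr3:145646976-145649981, minus strand) was at 159, 107, 365, 255, 387 and 120 CPM in control mice 1 to 6 and at 211, 75.6 and 116 CPM in ESCC mice 8M, 17F and 17M. The ranges overlapped, with 17F and 17M near or below the lowest control mice and 8M among them, and the log2 fold change of ESCC against control was -0.76 ± 0.30 (SE, n = 3 and 6). Ccn2 (chr10:24595442-24598683, plus strand), which encodes connective tissue growth factor, was at 2.53, 0, 112, 42.6, 88.5 and 12.9 CPM in control mice 1 to 6 and at 3.90, 0.663 and 0.558 CPM in ESCC mice 8M, 17F and 17M. Control mice 3, 4 and 5, the old ones, stood above the rest, and the ESCC mice lay among the lowest young controls. The pooled CPM ratio of ESCC to control was 0.0403 (95% counting interval 0.0142 to 0.0932, counting error only), but it rests on 6 ESCC UMIs in 4 cells, 1 of which held 3, against 58 UMIs in 36 control cells. A further 4 Ccn2 UMIs in ESCC lay in cells called non-epithelial, out of 10 over all cells.

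**Figure D1:**
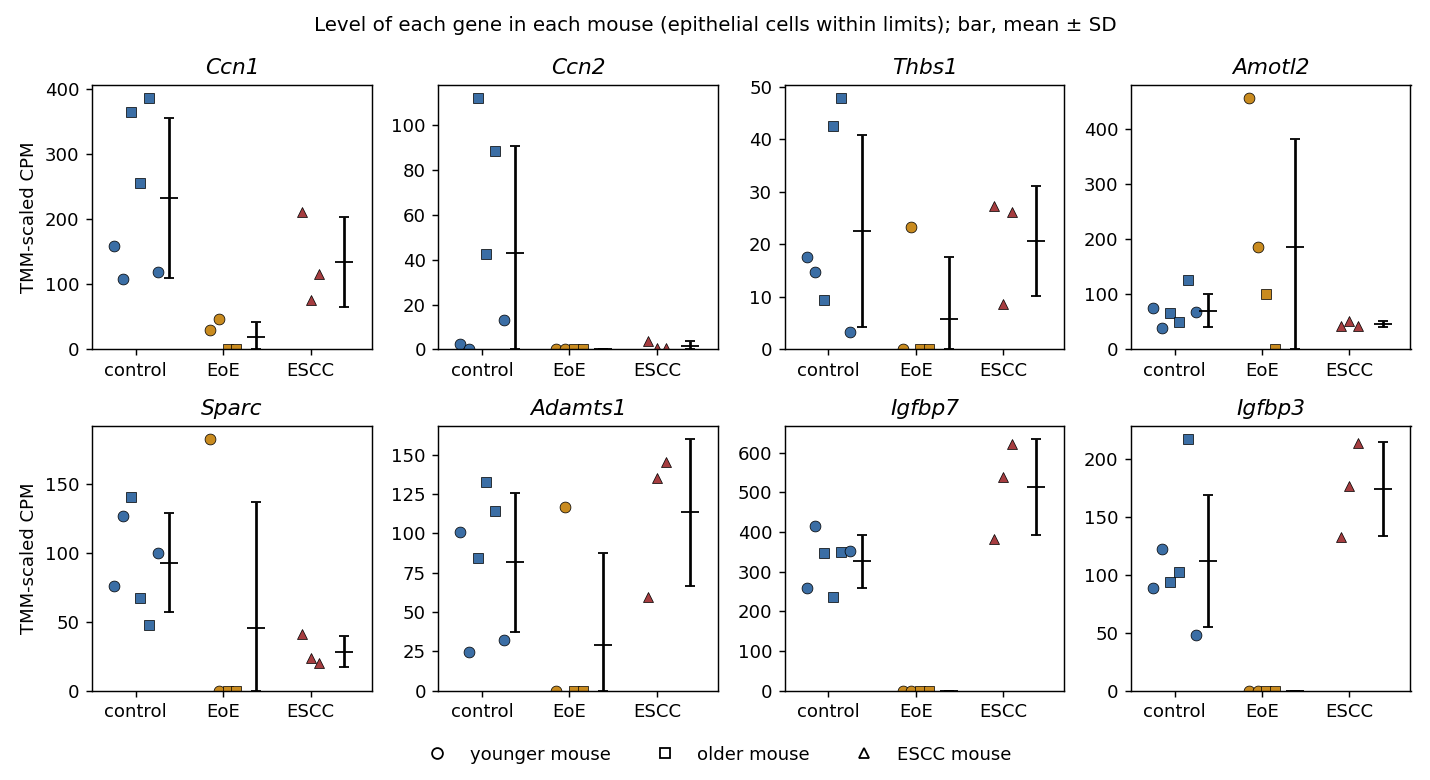
TMM-scaled CPM of each gene (vertical axes, linear) in each mouse of the control, EoE and ESCC groups, in cells within the limits and not called non-epithelial; 1 point is 1 mouse, circles and squares are younger and older control or EoE mice, triangles are ESCC mice, and black bars are the mean ± SD (cut at 0). Sparc is below every control mouse in the 3 ESCC mice, Igfbp7 is listed at 0 in the 4 EoE mice, and Ccn2 is highest in the old control mice.

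Thbs1 and Adamts1 did not separate the conditions. Thbs1 (chr2:118111876-118127133, plus strand) was at 17.7, 14.7, 9.36, 42.6, 47.9 and 3.23 CPM in control mice 1 to 6 and at 27.3, 8.62 and 26.2 CPM in ESCC mice 8M, 17F and 17M, with the ESCC mice inside the control range. It did not pass the filter on low counts, and the log2 fold change without a filter was -0.25 ± 0.36. Adamts1 (chr16:85793827-85803113, minus strand) was at 101, 24.4, 84.2, 133, 114 and 32.3 CPM in control mice 1 to 6 and at 59.4, 135 and 145 CPM in ESCC mice 8M, 17F and 17M. Here 17F and 17M were just above the highest control mouse and 8M was in the middle of the controls (log2 fold change 0.43 ± 0.31).

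Sparc was the 1 gene of the 8 whose ESCC and control mice did not overlap in these cells. Sparc (chr11:55394500-55423183, minus strand) was at 75.8, 127, 140.4, 67.6, 47.9 and 100.1 CPM in control mice 1 to 6 and at 40.9, 23.9 and 20.1 CPM in ESCC mice 8M, 17F and 17M. Every ESCC mouse was below every control mouse, as held for 11.3% of the 5866 genes tested, and every ESCC mouse was above every control mouse for 13.7% of them and for none of the 8. The log2 fold change was -1.66 ± 0.32. Since Sparc is also abundant in fibroblasts and endothelium, its UMIs were counted by cell call. Cells called non-epithelial held 32 of 174 control UMIs (18.4%) and 41 of 156 ESCC UMIs (26.3%), although they were 7 and 22 of 1500 cells, and they are left out of the levels above. With those cells and all others kept, the groups were still apart, at 44.3 to 175 CPM in controls and 21.8 to 40.5 CPM in ESCC.

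The 2 IGF binding protein genes were higher on average in ESCC, with overlap. Igfbp7 (chr5:77349240-77408041, minus strand) was at 260.1, 415, 346, 235, 350.3 and 352 CPM in control mice 1 to 6 and at 383, 538 and 621 CPM in ESCC mice 8M, 17F and 17M. Mouse 8M was within the control range and the others above it, and the log2 fold change was 0.68 ± 0.20. Igfbp3 (chr11:7206086-7213923, minus strand) was at 88.4, 122, 93.6, 103, 218 and 48.4 CPM in control mice 1 to 6 and at 133, 176 and 214 CPM in ESCC mice 8M, 17F and 17M, above 5 of the 6 control mice and not above mouse 5 (log2 fold change 0.65 ± 0.26). Amotl2 (chr9:102716672-102733418, plus strand) was at 75.8, 39.1, 65.5, 50.1, 125 and 67.8 CPM in control mice 1 to 6 and at 42.9, 51.7 and 42.4 CPM in ESCC mice 8M, 17F and 17M. The ESCC mice were at the low end of the control range without leaving it (log2 fold change -0.64 ± 0.29).

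More of the ESCC cells were rich in Krt5, so the same genes were compared inside that layer. A cell with at least 3 Krt5 UMIs that made up at least 3000 CPM was called Krt5-rich, which held for 918 of 1493 control cells (61.5%), 1378 of 1472 ESCC cells (93.6%) and 6 of 143 EoE cells. These shares are not at equal depth, since the cells had a median of 990 UMIs in control, 3109 in ESCC and 519 in EoE. In shallow cells 3 UMIs stand for more than 3000 CPM, so some with Krt5 fall into the other class. The part of depth in these shares was not tested. Within Krt5-rich cells, the differences in Igfbp7, Igfbp3 and Adamts1 shrank and those in Sparc and the CCN genes did not. The log2 fold change of ESCC against control was 0.17 ± 0.18 for Igfbp7, 0.17 ± 0.28 for Igfbp3 and -0.05 ± 0.34 for Adamts1. The 95% intervals ran from -0.19 to 0.52, from -0.38 to 0.72 and from -0.72 to 0.63. For Amotl2 it was -0.35 ± 0.31 and for Thbs1, without a filter on low counts, -0.68 ± 0.37. Adamts1 and Igfbp3 depended on which controls and cells were used. Against old controls they were at -0.53 ± 0.32 and -0.19 ± 0.35, against young controls at 0.46 ± 0.44 and 0.50 ± 0.24, and with cells thinned to 1000 UMIs Adamts1 was at 0.75 ± 0.42.

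Sparc in Krt5-rich cells was at 107, 169, 164, 90.8, 75.8 and 182 CPM in control mice 1 to 6 and at 47.0, 24.3 and 19.5 CPM in ESCC mice 8M, 17F and 17M. The groups again did not overlap (log2 fold change -2.15 ± 0.31), as was the case in this direction for 10.1% of the 4657 genes tested in these cells. Among the fibroblast markers, Dcn (decorin) also fell in these cells (-1.79 ± 0.59, edgeR adjusted p = 0.0261), with 205 of 970190 UMIs in control and 203 of 4680622 UMIs in ESCC cells, while Col1a1 and Col1a2, which define fibroblasts, had 0 and 0 UMIs in control and 5 and 2 in ESCC cells. Summed over the 8 fibroblast markers, control mice held 79.3 to 469 CPM and ESCC mice 15.7 to 166 CPM. Dcn made up 205 of the 207 UMIs of this sum in control and 203 of 220 in ESCC cells. The part of such RNA in the Sparc levels was not tested.

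**Figure D2:**
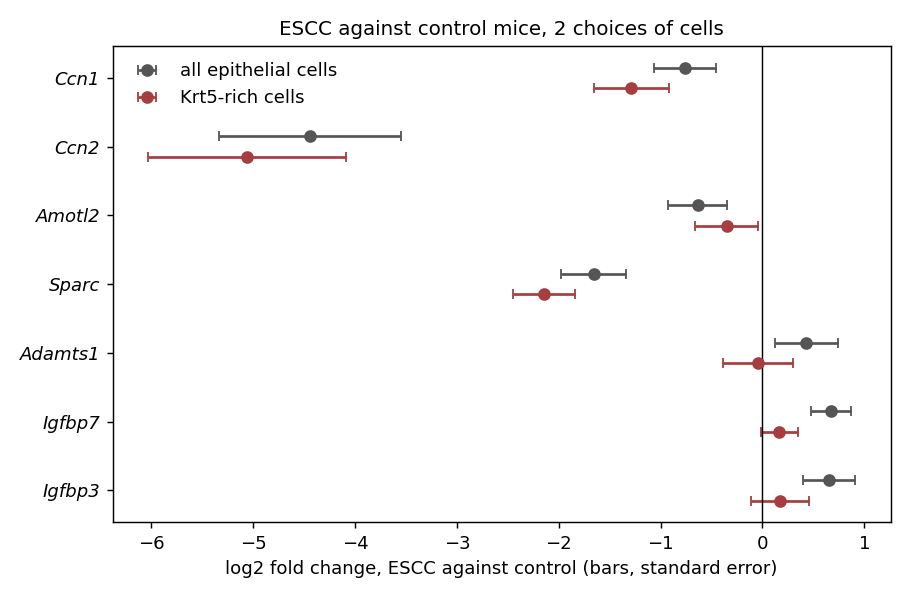
Log2 fold change of ESCC against control mice (horizontal axis; bars are the standard error, n = 3 and 6 mice) for the 7 genes that passed the filter on low counts, over all epithelial cells within the limits (gray) and over Krt5-rich cells (red). Igfbp7, Igfbp3 and Adamts1 move toward 0 in Krt5-rich cells, and Sparc, Ccn1 and Ccn2 stay below it.

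The difference in Ccn1 and Ccn2 depended on the age of the control mice. In Krt5-rich cells, Ccn1 was at 142 to 234 CPM in young controls, 409 to 619 CPM in old controls and 72.9, 113 and 242 CPM in ESCC mice 17F, 17M and 8M. The log2 fold change of ESCC against control was -1.29 ± 0.37 with both ages, -1.85 ± 0.35 against the old and -0.59 ± 0.37 against the young control mice. Ccn2 in the same cells was at 3.97, 0 and 24.2 CPM in young control mice 1, 2 and 6, at 141, 77.2 and 133 CPM in old control mice 3, 4 and 5 and at 0.543 to 4.58 CPM in ESCC mice. The ESCC mice were below every old control mouse for both genes and overlapped with the young. Sparc was lower in ESCC against either age, at -2.43 ± 0.34 against the young and -1.86 ± 0.40 against the old controls. These values by age were computed after seeing the data.

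Among control mice, Ccn1 and Ccn2 were at higher levels in the old than in the young. Over all epithelial cells within the limits, Ccn1 was at 129 ± 27.0 CPM in 3 young and 336 ± 70.5 CPM in 3 old mice (SD), a log2 fold change of 1.32 ± 0.24. Ccn2 was at 5.15 ± 6.85 and 81.1 ± 35.5 CPM (SD, n = 3 each), a log2 fold change of 3.60 ± 0.65 that rests on 5 UMIs in young and 53 in old mice. For both genes every old mouse was above every young mouse. In Krt5-rich cells alone the log2 fold changes were 1.28 ± 0.24 for Ccn1 and 3.53 ± 0.64 for Ccn2. The genes were chosen from levels that include these mice, and Ccn2 passed the filter on low counts through the old mice only, so nothing is read from the fact that both are among the 4 of 5149 genes (0.0777%) that edgeR called higher in old mice. The other three calls, named here after their values were seen, were Rgs2 and Hoxc8, which rose, and the imprinted noncoding RNA H19, which fell.

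Without any 1 of the 6 mice, the log2 fold change of old against young stayed between 1.18 and 1.52 for Ccn1 and between 3.14 and 5.09 for Ccn2. For the other members it was 0.99 ± 0.38 for Adamts1, 0.76 ± 0.35 for Igfbp3, 0.32 ± 0.36 for Amotl2, -0.16 ± 0.23 for Igfbp7 and -0.42 ± 0.34 for Sparc. Thbs1, fitted without a filter, was at 1.64 ± 0.55. Besides the members, 2 summed measures differed by age without overlap. Immediate early genes, which respond within minutes to stimulation and to tissue handling, summed to 18438 to 21620 CPM in young and 24029 to 27473 CPM in old mice (7988 to 13203 CPM in ESCC). Fibroblast markers summed to 65.7 to 132 CPM in young and 159 to 384 CPM in old mice. Dcn made up 247 of their 259 UMIs in control mice, so this sum is mostly the level of 1 gene. Col1a1, Pdgfra and Mfap5 were at 0 UMIs in both ages, and endothelial markers were at 0 in old mice. The part of these 2 measures in the CCN levels was not tested. Age cannot be told apart from the day or batch of preparation, which the labels do not give.

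**Figure D3:**
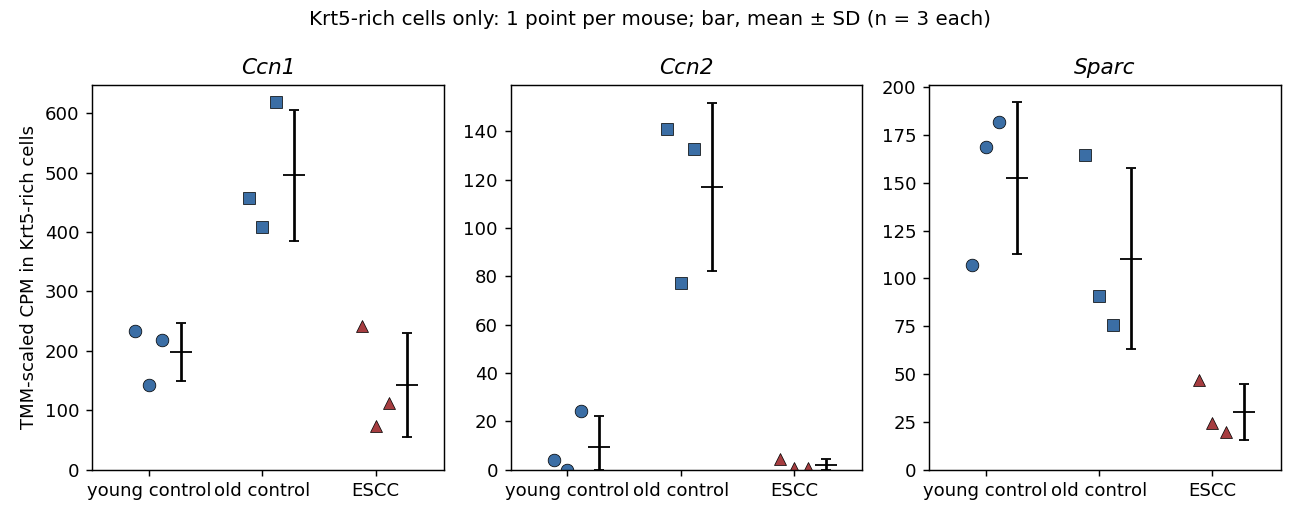
TMM-scaled CPM (vertical axes, linear) of Ccn1, Ccn2 and Sparc in Krt5-rich cells of 3 young control, 3 old control and 3 ESCC mice; points are mice and bars the mean ± SD (cut at 0). Ccn1 and Ccn2 are higher in every old than in every young control mouse, whereas Sparc is lowest in the ESCC mice and its young and old controls overlap.

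Within the epithelium of control mice, the secreted members were concentrated in Krt5-rich cells, Ccn2 and Thbs1 from few UMIs, and Amotl2 was not. Ccn1 was at 140 to 616 CPM in the Krt5-rich cells of the 6 mice and at 0 to 60.5 CPM in the other epithelial cells of the same mice (log2 fold change 3.33 ± 0.25 with mouse as a block). Igfbp7 was at 363 to 602 and 0 to 80.1 CPM (2.76 ± 0.19). Sparc was at 75.4 to 184 and 6.60 to 35.3 CPM (2.62 ± 0.36). All 3 were higher in the Krt5-rich cells of each mouse without overlap between the 2 kinds of cells. Igfbp3 was at 92.2 to 365 and 0 to 69.9 CPM (2.46 ± 0.37). These 4 genes passed the filter on low counts through the Krt5-rich cells, where they were high. Of the 5 members among the 2913 genes tested, Ccn1, Sparc, Igfbp7 and Igfbp3 were higher in Krt5-rich cells of every control mouse. This held for 20.5% of the genes tested. Adamts1, not among those genes, was also higher in every mouse. None of the 8 members was lower in every mouse, which held for 19.6% of the genes tested. By the edgeR test 24.6% of genes were called higher and 24.9% lower. Amotl2 went the other way, at 27.6 to 107 CPM in Krt5-rich and 30.1 to 136 CPM in other cells, lower in 5 of 6 mice (log2 fold change -0.79 ± 0.28). With the Krt5 threshold at 5000 CPM, which moves cells of lower Krt5 into the other class, Ccn1 was still higher, by 1.34 ± 0.20 on the log2 scale, and Amotl2 did not pass the filter. Without mouse 2 or mouse 3 Amotl2 was at -0.88 and -0.84, and it did not pass the filter without any 1 of the others.

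Adamts1, Ccn2 and Thbs1 had too few UMIs in the other cells to pass the filter on low counts. In a fit without it, chosen after seeing the data, in which 9.04% of 12434 genes were called higher and 9.46% lower in Krt5-rich cells, Adamts1 was at a log2 fold change of 1.99 ± 0.34. Thbs1 was at 2.26 ± 0.64, from 37 UMIs in Krt5-rich cells and 0 to 2 UMIs in the other cells of each mouse. In mouse 2, Thbs1 was at 13.3 CPM in Krt5-rich and 15.0 CPM in other cells, from 2 UMIs and 1 UMI. Ccn2 in the other cells rested on 3 UMIs, all from mouse 5, against 55 in Krt5-rich cells.

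**Figure D4:**
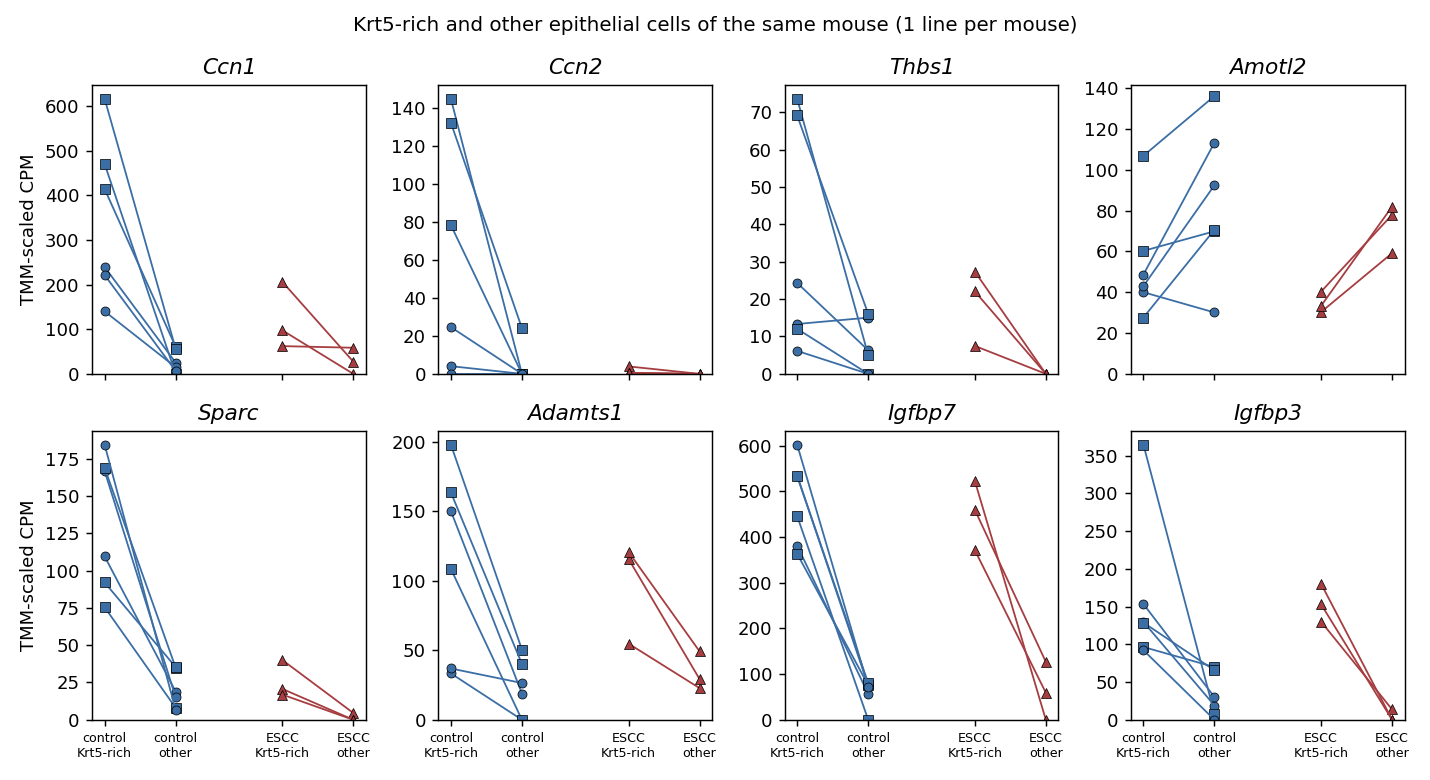
TMM-scaled CPM (vertical axes, linear) in Krt5-rich and other epithelial cells of the same mouse, joined by a line, for 6 control mice (blue; circles young, squares old) and 3 ESCC mice (red). Ccn1, Sparc, Adamts1, Igfbp7 and Igfbp3 are higher in the Krt5-rich cells of every mouse, and Amotl2 is lower in them in 5 of 6 control and 3 of 3 ESCC mice.

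The ESCC mice had few cells outside the Krt5-rich class, namely 50, 27 and 17 in 8M, 17F and 17M, so several members rest on few UMIs there. Igfbp7 was higher in Krt5-rich cells by 2.67 ± 0.28 on the log2 scale, and by 2.29 to 3.22 without any 1 of the 3 mice. Ccn1 was higher by 2.11 ± 0.44, with 206, 62.1 and 97.7 CPM in the Krt5-rich and 27.3, 58.5 and 0 CPM in the other cells of 8M, 17F and 17M. In 17F the 2 kinds of cells were thus nearly equal, and the log2 fold change was 1.12 without 8M and 3.10 without 17F. Adamts1 was higher 2.83-fold, and by 1.25 to 1.71 on the log2 scale without any 1 mouse. Sparc had 41, 36 and 36 UMIs in the Krt5-rich cells of 8M, 17F and 17M and 1, 0 and 0 UMIs in their other cells. Igfbp3 had 133, 266 and 384 UMIs against 3, 0 and 0 UMIs. Ccn1, Igfbp7, Sparc and Igfbp3 passed the filter on low counts through the Krt5-rich cells, where they were high. In the other cells of 17M, Ccn1 and Igfbp7 also had 0 UMIs. No fold is given for Sparc and Igfbp3. Amotl2 was lower in the Krt5-rich cells of all 3 mice (-1.04 ± 0.43). Of the 6 members among the 6990 genes tested, all but Amotl2 were higher in Krt5-rich cells of every mouse, against 29.7% of genes. The share of genes lower in all 3 mice was 17.6%. By the edgeR test 7.57% were called higher and 7.32% lower. Ccn2 and Thbs1 had 0 UMIs in the other cells, so no fold is given for them from the fit without a filter, where 3.3% of genes were called higher and 3.02% lower. The difference between ESCC and control mice in this contrast was not tested.

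Shares of cells with a UMI were compared at equal depth. Cells were thinned to 1000 UMIs, which kept 407 Krt5-rich control and 1378 Krt5-rich ESCC cells and left out 758 shallower epithelial cells of control and 0 of ESCC mice. Igfbp7 had a UMI in 37.1% of the control and 36.9% of the ESCC cells (45.9% and 66.5% before thinning, at median depths of 1291 and 3082.5 UMIs). Of the other control cells, thinned the same way from a median of 1619.5 UMIs, 6.10% had an Igfbp7 UMI. Ccn1 was found in 18.7% and 8.35% of the Krt5-rich control and ESCC cells (3.35% of other control cells), and Sparc in 11.5% and 2.39% (0.915%). The mice overlapped for both genes, at 7.69% to 33.8% in control and 5.52% to 16.7% in ESCC mice for Ccn1 and at 2.94% to 18.2% and 1.26% to 5.19% for Sparc. Igfbp3 was found in 11.5% and 10.4% (1.83%) and Adamts1 in 5.90% and 9.87% (0.305%).

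In EoE the few UMIs set what can be said, so the genes are given over cells within the limits and over all deposited cells. Ccn1 had 3 UMIs within the limits (30.5, 46.7, 0 and 0 CPM in mice 9 to 12) and 14 over all cells (74.4, 53.0, 48.7 and 14.4 CPM). All 4 mice were below the lowest control mouse in both, as was the case for Igfbp3, which was at 0 within the limits, and Igfbp7 is listed at 0 in both. With these zeros counted, 3 of the 8 members were below, against 29.4% and 24.9% of the 5866 genes tested. Every EoE mouse was above every control mouse for none of the 8, against 5.34% and 14.1% of genes. The log2 fold change of Ccn1 against control was -2.99 ± 0.90 within the limits and -2.08 ± 0.56 over all cells. Krt5 was itself lower, and per 100 Krt5 UMIs over all cells Ccn1 was at 4.84 UMIs in EoE (95% counting interval 2.62 to 8.26) and at 4.35 UMIs (3.90 to 4.82) in controls, against 1.12 UMIs (1.02 to 1.21) in ESCC. These intervals pool the mice of a group and cover counting error only. By mouse, Ccn1 ranged from 1.67 to 7.14 UMIs in EoE, 1.74 to 8.63 in control and 0.727 to 2.22 in ESCC, with overlap. Igfbp3 had 0 UMIs within the limits and 5 over all cells, a CPM ratio to control of 0.172 (0.0553 to 0.410), and 1.73 UMIs per 100 Krt5 UMIs (0.558 to 4.08) against 2.18 UMIs (1.88 to 2.53) in controls. By mouse, this last measure ranged from 0 to 3.57 UMIs in EoE and from 1.03 to 4.85 UMIs in controls. Igfbp7 was listed at 0 in the 4 EoE libraries. Ccn2 had 1 and Thbs1 4 UMIs over all EoE cells, which allows no comparison.

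Amotl2 was the member with the most UMIs in EoE within the limits, and its mean level there was above that of controls. It was at 458, 187, 100.0 and 0 CPM in mice 9 to 12 within the limits and at 360, 225, 162 and 100.5 CPM over all cells, where the control mice were at 35.1 to 116 CPM. The young EoE mice 9 and 10 were above every control mouse in both. Over all cells mouse 11 was above them too, and mouse 12 was among the controls. Within the limits the controls were at 39.1 to 125 CPM, with mouse 11 among them, from 1 UMI, and mouse 12 below them. The log2 fold change was 1.64 ± 0.48 within the limits and 1.71 ± 0.33 over all cells. Within the limits it was 0.67 without mouse 9, and up to 1.98 without any 1 other mouse. Genes listed at 0 occurred in the other direction too, with 24 of 1790 genes at 100 CPM or more in EoE without a UMI in any control cell, and the part of such differences between libraries in the Amotl2 level was not tested. The 24 UMIs within the limits came from 13 cells, and 1 cell held 7 of them. Sparc depended on which cells were used. It was at 183, 0, 0 and 0 CPM in mice 9 to 12 within the limits, with 4 of the 6 UMIs in 1 cell (log2 fold change -0.62 ± 0.74), and at 372, 159, 244 and 345 CPM over all cells (1.51 ± 0.33). Of 81 Sparc UMIs in EoE, 51 lay in cells outside the limits and 24 in 2 cells called non-epithelial (29.6%). Over all EoE cells, fibroblast markers summed to 119 to 244 CPM (78.1 to 699 CPM in controls), and of the endothelial markers Pecam1 had 103 UMIs while the others were at 0. Their part in the Sparc levels was not tested. Adamts1 had 5 UMIs within the limits, 4 of them in 1 cell of mouse 10, and 15 over all cells (log2 fold change -0.87 ± 0.90 and -0.59 ± 0.59). Across the tested genes the median log2 fold change of EoE against control was -0.75 within the limits (-0.97 with DESeq2 size factors and -0.58 with totals only) and -0.31 over all cells, a shift to set beside the EoE values of the same cells.

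Against EoE, ESCC mice had less Amotl2 (log2 fold change -2.27 ± 0.50 within the limits and -2.40 ± 0.34 over all cells) and, over all cells, less Sparc (-3.10 ± 0.37). Ccn1 was higher in ESCC than in EoE by 2.23 ± 1.00 within the limits and by 1.31 ± 0.61 over all cells. The edgeR test called 30.0% of genes higher and 11.7% lower in ESCC than in EoE. These contrasts share their mice with those against control.

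Among the upstream genes, Yap1 itself did not differ detectably between control and ESCC and was called lower in EoE, from few UMIs. Yap1 was at 252 ± 35.0 CPM in control, 237 ± 44.3 CPM in ESCC and 120 ± 31.1 CPM in EoE mice (SD, n = 6, 3 and 4), the last from 14 UMIs. Against control, the log2 fold change was -0.08 ± 0.17 in ESCC (edgeR adjusted p = 0.767) and -0.94 ± 0.35 in EoE (edgeR adjusted p = 0.0382, where the median of all genes was -0.75; it was not called with totals only). That median lay within the SE of the EoE value. Over all deposited cells, Yap1 in EoE was at -1.19 ± 0.26 from 29 UMIs, where the median of all genes was -0.31. Wwtr1 was at 28.5 ± 17.4 CPM in control and 38.5 ± 10.8 CPM in ESCC mice (log2 fold change 0.31 ± 0.33, edgeR adjusted p = 0.506). In EoE, Wwtr1 rested on 6 UMIs (0.81 ± 0.79, edgeR adjusted p = 0.439). Yap1 did not differ detectably between Krt5-rich and other cells of control mice (0.03 ± 0.17, edgeR adjusted p = 0.898) or of ESCC mice (0.48 ± 0.27, edgeR adjusted p = 0.26). Wwtr1 was called higher in Krt5-rich cells of ESCC mice (2.56 ± 0.91, edgeR adjusted p = 0.0331), as were 7.57% of all genes. Its other cells held 1, 1 and 0 UMIs in 8M, 17F and 17M. Tead1 was lower in the Krt5-rich cells of ESCC mice (-0.62 ± 0.22, edgeR adjusted p = 0.0399) and not detectably so over all epithelial cells (-0.37 ± 0.22, edgeR adjusted p = 0.194).

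A list of 17 further genes read as YAP targets gave 10 that could be tested in ESCC against control, of which Myof rose and 5 fell (17.8% of all genes tested rose and 16.8% fell). The median log2 fold change of the 10 was -0.70 against 0.01 over all genes. Rbms3, an RNA binding protein gene, fell by 2.95 ± 0.34 and F3, which encodes tissue factor, by 2.38 ± 0.35 on the log2 scale (edgeR adjusted p = 3e-08 and 2.67e-06), and Myof, a membrane repair gene, rose by 0.60 ± 0.19 (0.0152). In Krt5-rich cells, 0 of 8 rose and 4 fell (Rbms3, Fjx1, Ptpn14 and Crim1), against 16.2% and 14.3% of all genes. With totals as the only scaling, Myof was not called and 6 of 10 genes fell. Of 15 Hippo pathway genes tested, Wwc1, an upstream regulator of LATS kinases, was called and fell (-0.64 ± 0.23, edgeR adjusted p = 0.0289). This count was 0 with DESeq2 size factors and 5 with totals only. In control mice, 4 of 8 Hippo genes tested (Ajuba, Amotl1, Limd1 and Vgll4) were higher in Krt5-rich cells and 0 lower, against 24.6% and 24.9% of all genes, and of the YAP targets Crim1, Myof and Ptpn14 were higher and F3 lower. In EoE against control, 1 of 10 YAP targets rose (Nuak2) and 3 fell, and 3 of 15 Hippo genes rose (led by Wwc1, 2.58 ± 0.32, edgeR adjusted p = 1.61e-07) and 3 fell, against 9.46% and 25.1% of all genes. In the layers of control mice, Amotl1, the paralog of Amotl2, differed from it in sign (1.11 ± 0.24, edgeR adjusted p = 0.000135).

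Receptors of matricellular proteins and partners of the IGF binding proteins are given beside the members. Of 12 receptor genes tested in ESCC against control, 5 rose, among them the integrin genes Itga3 (1.36 ± 0.25, edgeR adjusted p = 0.000103) and Itga6 (0.99 ± 0.22, edgeR adjusted p = 0.000721), and 2 fell, the syndecan gene Sdc4 (-0.88 ± 0.21, edgeR adjusted p = 0.00151) and the Wnt coreceptor gene Lrp6 (-0.93 ± 0.23, edgeR adjusted p = 0.00185). Over all genes 17.8% rose and 16.8% fell. With totals only, 4 of the 12 rose and 4 fell. In Krt5-rich cells 1 of 10 rose (Itga3) and 3 fell (Lrp6, Sdc4 and Cd47), against 16.2% and 14.3% of all genes. Of 6 IGF system genes tested, Pappa, which encodes a protease that cleaves IGF binding proteins, rose 5.64-fold (edgeR adjusted p = 1.26e-05) and Igfbp5 fell by 1.14 ± 0.26 on the log2 scale (edgeR adjusted p = 0.000883). Both did so in Krt5-rich cells too (log2 fold changes of 1.91 ± 0.43 and -1.56 ± 0.27, edgeR adjusted p = 0.00198 and 0.000186). Of 17 other matricellular genes, Smoc2, a relative of Sparc, was the 1 with enough counts. Smoc2 was 9.16-fold higher in the Krt5-rich than in the other cells of control mice (edgeR adjusted p = 1.87e-11) and fell by 0.61 ± 0.19 in Krt5-rich cells of ESCC mice (edgeR adjusted p = 0.019). None of the 15 other ADAMTS genes with counts could be tested. Of 5 TGF beta signaling genes, Tgfbr2 (1.08 ± 0.25, edgeR adjusted p = 0.00116) and Skil rose and Smad7 fell in ESCC, and the fall of Smad7 was not called with DESeq2 size factors.

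Of 17 immediate early genes tested, a class to which Ccn1 and Ccn2 are often counted, 13 fell and Ier3 rose in ESCC against control, with a median log2 fold change of -1.04, where 16.8% of all genes fell and 17.8% rose at a median of 0.01. In Krt5-rich cells 11 of 16 fell and Fosl2 rose, against 14.3% and 16.2% of all genes. Egr1, an early growth response factor, fell by 2.09 ± 0.25 and Egr3 by 2.65 ± 0.38 on the log2 scale (edgeR adjusted p = 1.02e-07 and 1.27e-06). In EoE, 10 of 17 fell and 2 rose, with a median of -1.12, where 25.1% of all genes fell and 9.46% rose at a median of -0.75. The genes whose levels over the 13 mice were most like those of Ccn2, by the root mean square difference of standardized log2 CPM, were Atf3 (0.543), Plxna1 (0.626), Rgcc (0.649), Acaa2 (0.663) and Pdk4 (0.705), where the median over 5525 genes was 1.17. For Ccn1 they were Gstt3 (0.256), Timm17b (0.260), Serpinb10 (0.273), Ipmk (0.273) and Jun (0.281), against a median of 0.868 over 5524 genes. Atf3 and Jun are themselves immediate early genes, and the other genes named as most alike are not on the list used here. The likeness was computed from the levels by which Ccn1 and Ccn2 were chosen, so nothing is read from it. The part of tissue handling in these levels was not tested.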

How the data were processed

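The deposited values are whole UMI counts per gene and cell. For these counts the authors extracted barcodes with UMI-tools 1.0.0, aligned reads with STAR 2.7.3 to GRCm38, assigned them to genes with featureCounts, filtered cells and drew 1500 cells per condition. The authors' strand setting, cell labels and clusters were not used here.

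The genes and gene lists were chosen with earlier results of these data known. Samples were grouped by the disease state in the labels, and the mouse was the replicate. Cells outside 250 to 3500 genes or 100 to 9500 UMIs were left out, as were cells with at least 3 UMIs of non-epithelial markers and more of these than of epithelial markers (7 control, 2 EoE and 22 ESCC cells over all deposited cells). Sparc and Igfbp7 were kept off those marker lists. Doublets were not called.

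UMI counts were summed per mouse and fitted in edgeR 4.0.16 under R 4.3.3. Libraries were scaled by TMM, low genes were removed with filterByExpr, and p-values of the quasi-likelihood test were adjusted over all genes tested (Benjamini-Hochberg, threshold 0.05). All 13 mice entered the fit by condition. Krt5-rich and other cells were compared with mouse as a block, and old and young controls among the 6 control mice. Of the 8 genes, 7 passed the filter by condition, 5 in the control and 6 in the ESCC comparison of cell layers. Members with counts were all named and are given with no p-value. Of each list, up to 2 genes per direction with the lowest adjusted p were named, with Yap1, Wwtr1 and Tead genes always. Other list genes named beside a count were chosen after their values were seen. Likeness to Ccn1 or Ccn2 was the root mean square difference of standardized log2 CPM (5 genes each). Alternatives were all deposited cells, non-epithelial calls kept, other scaling, no filter, DESeq2 1.42.0, other Krt5 thresholds, thinned cells and each mouse left out. Tested on simulated data with 200 genes changed by a log2 fold of 2, the fit recovered all 200 in ESCC, 57.5% in EoE, 98.5% by age, and in the cell layers 100% of control and 78.0% of ESCC mice. Unchanged genes called numbered 8 in ESCC, 14 in EoE (beside 115 changed), 3 by age, and 12 and 3 in the layers. With no gene changed, 0 were called. Libraries of 1 mouse differed in a member's share of UMIs at an exact binomial p under 0.05 in 7 of 71 gene and mouse pairs. Floors are 3 UMIs, counting intervals are exact at 95%, and both cover counting error only. Gene names follow the files and coordinates GRCm38.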

Additional observations from a re-analysis of the deposited data

Results flagged for a closer look

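A mouse stood far from the others of its group in 5 of 40 groups of 4 or 6 mice looked at. Of these, 4 concern EoE mice, in each of which the other 3 mice had no UMI. In such a group any UMI in the remaining mouse is flagged, so these flags are not set against a chance rate. Ccn2 was at 12.4 CPM in EoE mouse 9 over all deposited cells, from 1 UMI. Thbs1 was at 23.4 CPM in EoE mouse 10, also from 1 UMI. Sparc was at 183 CPM in EoE mouse 9, from 6 UMIs. Adamts1 was at 117 CPM in EoE mouse 10, from 5 UMIs. The fifth is Igfbp3 in Krt5-rich cells of control mouse 5, at 366 CPM, where the next mouse was at 155 and the lowest at 90.8 CPM.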

How the results depend on the processing

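Without 1 mouse in turn, the genes called ranged from 1130 to 2141 for EoE against control (2028 with every mouse, lowest without EoE mouse 10), from 1577 to 2509 for ESCC against EoE (2443, lowest without EoE mouse 10), from 921 to 1694 for ESCC against control in Krt5-rich cells (1421, lowest without ESCC mouse 17F), from 358 to 931 for the cell layers of ESCC mice (1041, lowest without ESCC mouse 8M) and from 0 to 8 for age (5). The 0 arose without control mouse 5 by edgeR, with 282 genes at an unadjusted p under 0.05. Members whose groups did not overlap ranged from 1 to 3 in ESCC (1) and from 3 to 5 in EoE (3), the 3 without ESCC mouse 8M and the 5 without EoE mouse 10.

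Thinning cells to 1000 UMIs gave 711 genes in Krt5-rich cells of ESCC against control. A stricter Krt5 share of 5000 CPM gave 479 genes in the cell layers of ESCC mice. No filter gave 2300 genes in the layers of control mice (1441 with it) and 24 genes by age, and Krt5-rich cells alone gave 9 by age; the first and the last of these were chosen after seeing the data. DESeq2 called 5 genes by age. Calls higher and lower in ESCC against control were 1046 and 985 with TMM, 1313 and 761 with DESeq2 size factors and 737 and 1485 with totals only. The cause of these differences was not tested. No paired analysis was possible because replicate numbers were given in accession order and name no pairs across conditions. In EoE, 3 UMIs over the group are 28.2 CPM, which is above the mean Thbs1 level of controls.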
